A study of Arabidopsis thaliana with 18 samples.

Results

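The genes described here are 28 genes of the Arabidopsis plastid genome whose products express that genome or serve other basic functions of the organelle, of 13363 genes named by the array. They comprise the 4 polymerase genes rpoA, rpoB, rpoC1 and rpoC2, 10 genes of the small and 9 of the large ribosomal subunit, matK, accD, clpP, ycf1 and ycf2. They were taken by symbol from the array annotation, with the plastid copy chosen wherever the mitochondrial genome carries the same symbol. All 28 were found, on 29 probe sets, because rps12 has 2 probe sets (244939_at and 244940_at). The probe sets of ycf1, ycf2, rps7, rps12, rpl2 and rpl23 each name 2 annotated plastid copies, so the annotation does not tell the copies of these 6 genes apart. Which part of rps12 its 2 probe sets read was not checked.

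Plastids keep a small genome that is transcribed by a bacterial-type RNA polymerase, whose core subunits are the rpo gene products, and by phage-type polymerases encoded in the nucleus. In the textbook scheme the rpoB, rpoC1 and rpoC2 operon, accD and some ribosomal protein genes rely largely on the nuclear-encoded polymerase, while photosynthesis genes rely largely on the plastid-encoded one. The transcripts are translated on bacterial-type ribosomes, assembled from proteins encoded in both the plastid and the nuclear genomes. accD encodes the carboxyltransferase beta subunit of plastid acetyl-CoA carboxylase, which makes the precursor of fatty acids, and clpP encodes a proteolytic subunit of the Clp protease. matK encodes a maturase that acts in the splicing of plastid introns, and ycf1 and ycf2 encode large proteins tied to protein import across the inner envelope.

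Transcript levels were measured on 18 Affymetrix ATH1 arrays of whole plants aged 14 days, grown at 22 °C with 16 h of light on medium with sucrose. The plants were wild type of the Columbia accession (Col-0) or the line etr1-1, which carries a dominant allele of the ethylene receptor gene ETR1 in the same background and is insensitive to ethylene. They were sprayed with water or with GA4, a bioactive gibberellin, dissolved in water. Each genotype was harvested at 1 h after water and at 1 h after GA4 on 3 arrays each, and once each at 0 h after water, 30 min after GA4 and 3 h after GA4. The genotypes were compared for a difference in these transcripts, and the sprays for a difference between GA4 and water. etr1-1 was the only mutant line, so a difference between the genotypes need not be an effect of ethylene insensitivity.

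The array titles begin with DV001 on 10 arrays and with DV002 on the other 8, and all of the 0 h, 30 min and 3 h arrays carry DV001. At 1 h, replicate numbers 1 and 2 are DV002 arrays and replicate number 3 is the DV001 array. The labels do not say whether replicate numbers stand for separately grown plants, so each p-value is set against array-to-array spread that could be purely technical. The labelled RNA was made with an oligo(dT) primer, and plastid transcripts carry no stable poly(A) tail, so an intensity is the part of a transcript pool that entered this labelling. In these whole-plant samples fewer plastids or green cells and less transcript per cell cannot be told apart. The etr1-1 allele is a base substitution, so the ETR1 transcript level does not check the genotype labels, and no other transcript was used to do so. The one measured marker of the green tissue list, LHCB4.1, and the 2 measured root markers, EXPA7 and SCN1, were present on every array. Their summed intensity spanned 2603 to 3671 for LHCB4.1 and 317 to 385 for the root markers.

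The median member stood at the 93.5 percentile of the tested probe sets by mean level, and all 29 probe sets passed the filter on low values. rpl2, a protein of the large subunit, had the highest median intensity, 2167, and ranged from 1862 to 2690.3 over the 18 arrays. rps7, matK, clpP, rps4, rpl23, rpl33 and rpl16 had medians of 1042 to 1795, whereas ycf2 (10.5 to 74.2) and rpoB (11.6 to 141) were the dimmest. Probe sets differ in their response to a given amount of RNA, so these intensities rank arrays for a gene and do not rank genes. The members also varied more between arrays than most probe sets. Their median standard deviation on the log2 scale over the 18 arrays was 0.33, against 0.20 for all 15922 probe sets tested, and the highest intensity exceeded the lowest by between 1.45-fold (rpl2) and 12.2-fold (rpoB).

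Both extremes of this spread lay on replicate number 1 at 1 h. The Col-0 array of replicate number 1 after GA4 was the highest of 18 for 11 of the 29 probe sets, and the etr1-1 array of replicate number 1 after GA4 was the lowest for 17. The members' mean centred log2 level was 0.35 on the former and -0.64 on the latter, and -0.50 on the etr1-1 array of replicate number 1 after water. The 48 plastid-encoded photosynthesis genes moved likewise, with means of 0.43 and -0.60 on the 2 GA4 arrays. The mitochondrial-genome genes moved less but in the same direction, with means of 0.07 and -0.18. Between these 2 GA4 arrays, all 8 tested mitochondrial-genome genes were lower in etr1-1, with a median of -0.34, against -0.96 for the members. The log2 ratio of the 3′ to the 5′ control probe set of GAPDH, a sign of RNA integrity and labelling, was highest on that Col-0 array, at 1.19, and lay between 0.19 and 0.71 on the others. Its part in the members' levels was not tested. The Actin ratio was 2.97 there, below 3.02 on the Col-0 array of replicate number 1 after water. It was 3.01 on the etr1-1 array of replicate number 2 after water. The Ubq ratio was 1.72 there and highest, at 1.92, on that same etr1-1 array. The part of these ratios in the members' levels was not tested either.

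**Figure D1:**
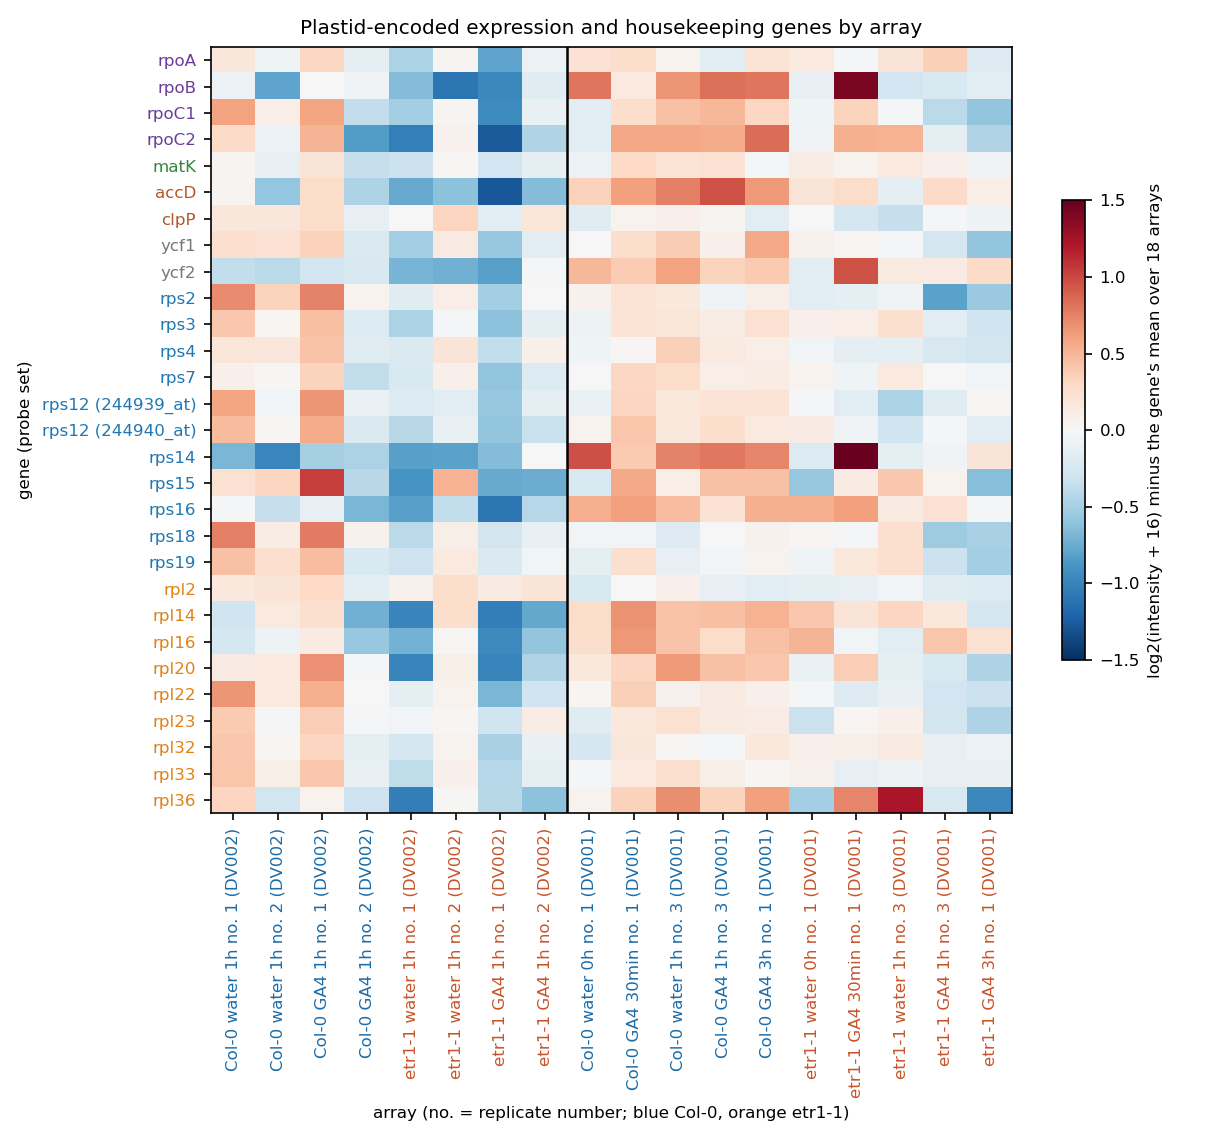
Each cell is the log2(intensity + 16) of 1 probe set (rows, coloured by class) on 1 array (columns, Col-0 in blue and etr1-1 in orange, DV002 arrays left of the line), minus that gene's mean over the 18 arrays. The etr1-1 arrays of replicate number 1 at 1 h are blue in most rows, the Col-0 arrays of the same number are red in most, and rpoB, accD, rps14, rps16 and ycf2 are lower on the DV002 arrays than on most DV001 arrays.

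Over all conditions, the etr1-1 plants had lower levels of the members than Col-0 in every one of the 29 fitted differences, but only 6 probe sets, of 5 genes, passed the test. The genes that fell were rpl22 and rpl20 of the large ribosomal subunit, rps2 and rps12 of the small subunit, and ycf1, by 0.41 to 0.64 on the log2 scale, and no member rose. The test was limma with a moderated variance on log2(intensity + 16), with a term for each of the 5 spray and time conditions, 9 arrays per genotype and Benjamini-Hochberg adjustment over all 15922 probe sets at 0.05. It called 6.61% of all probe sets, 3.34% as lower, beside 6 of 29 members. The members were chosen with earlier results of these data known, so a share above the background is no independent support. The median difference of the members was -0.29, against 0.01 for all probe sets tested. Without the 1 h arrays numbered 1 the fit called 1 member, against 2.37% of all probe sets as lower. The same arrays enter several of the comparisons that follow, so their values are not independent of each other.

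rpl22, a protein of the large subunit, had the smallest adjusted p. In Col-0 its intensities were 461 at 0 h, 585 at 30 min after GA4 and 477 at 3 h, and 727, 504 and 474 at 1 h after water and 665, 452 and 498 at 1 h after GA4 in replicate numbers 1, 2 and 3. In etr1-1 they were 444, 394 and 358 at 0 h, 30 min and 3 h, 409, 469.9 and 417 at 1 h after water, and 274, 363 and 367 at 1 h after GA4. The etr1-1 array was the lower of each of the 9 matched pairs, and at 1 h the genotypes did not overlap after either spray. The fitted fall was 0.45 on the log2 scale with an SE of 0.10 (limma, adjusted p = 0.00955).

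rpl20, of the same subunit, showed the largest fitted difference. Col-0 gave 356 at 0 h, 399.8 at 30 min and 425 at 3 h, with 349, 354 and 505 at 1 h after water and 521, 309.8 and 437 at 1 h after GA4. etr1-1 gave 294, 413 and 226 at those single times, with 152, 339 and 287 after water and 152, 227 and 269 after GA4 at 1 h. The etr1-1 array was lower in 8 of 9 pairs, the exception being 30 min, and the lowest values were both of replicate number 1. The fitted fall was 0.64, with an SE of 0.16 (limma, adjusted p = 0.0183).

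rps2, a small-subunit protein gene, was lower in etr1-1 in all 9 pairs. Its Col-0 intensities were 703 at 0 h, 778 at 30 min and 714 at 3 h, 1107, 852 and 750.4 at 1 h after water and 1134, 698 and 646 at 1 h after GA4. The etr1-1 intensities were 601, 606 and 449 at 0 h, 30 min and 3 h, 588, 719 and 646 after water and 467, 676 and 376 after GA4 at 1 h. The groups overlapped at 1 h after GA4 and did not after water. The fitted fall was 0.51, with an SE of 0.12 (limma, adjusted p = 0.0143).

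The pair of rps12 probe sets, which read a gene split between distant parts of the plastid genome and joined by trans-splicing, gave falls of 0.42 and 0.41, each with an SE of 0.11 (limma, adjusted p = 0.0315 for 244939_at and 0.0245 for 244940_at). Over the arrays, 244939_at spanned 83.0 to 216 and 244940_at spanned 391 to 887, with both extremes of each on the GA4 arrays of replicate number 1. ycf1 fell by 0.42, with an SE of 0.11 (limma, adjusted p = 0.0298), and its intensities ran from 361 on the etr1-1 array at 3 h to 819 on the Col-0 array at 3 h. At 0 h ycf1 read 551 in Col-0 and 573 in etr1-1, so the order of the genotypes was the other way there.

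**Figure D2:**
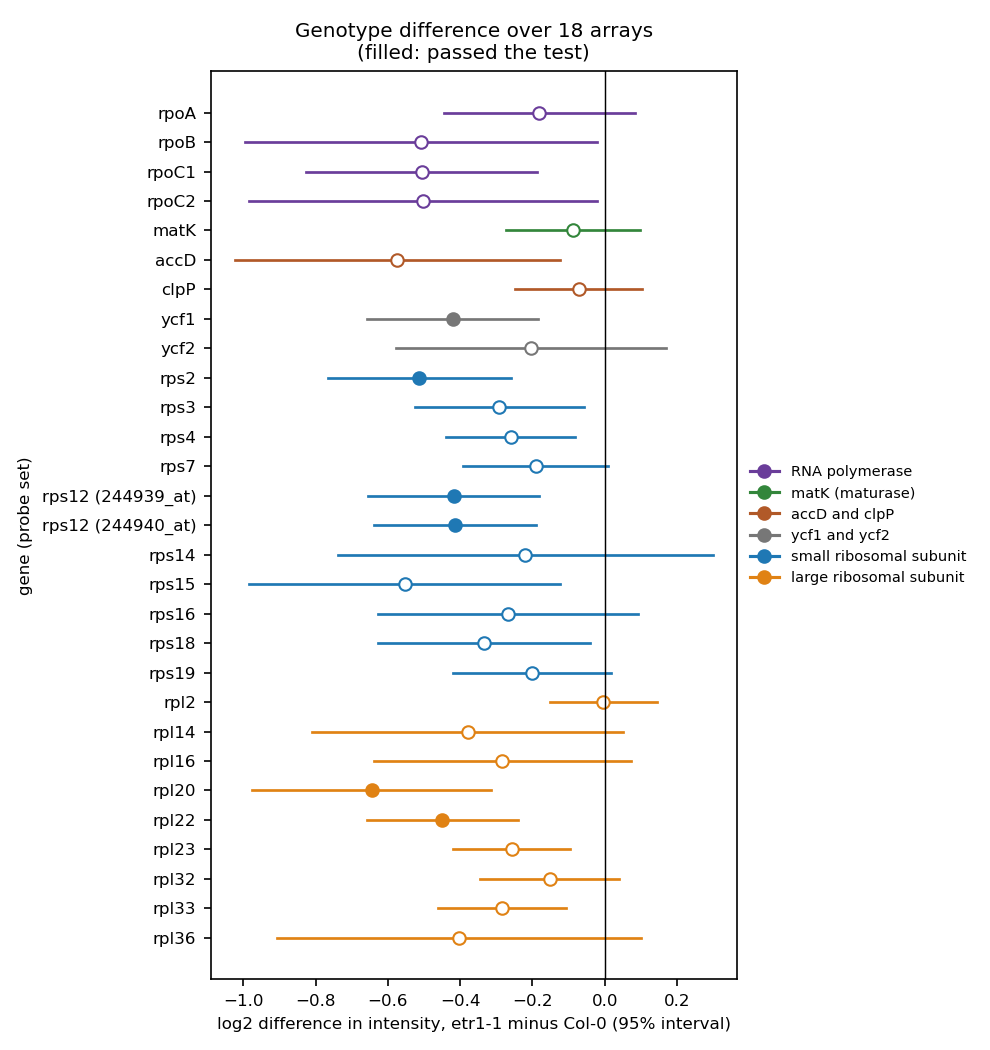
Points are the fitted log2 differences in intensity, etr1-1 minus Col-0, over 18 arrays for each probe set, bars are 95% confidence intervals, colours mark the class and filled points passed the test. All 29 points lie below 0, from -0.64 for rpl20 to -0.0044 for rpl2, and the 6 filled points belong to rpl20, rpl22, rps2, rps12 and ycf1.

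Of the polymerase genes rpoB, rpoC1 and rpoC2 had larger fitted differences than most ribosomal probe sets, rpoA did not, and 0 of 4 passed. rpoC1, which encodes the beta′ subunit, differed by -0.51 with an SE of 0.15 (limma, adjusted p = 0.0548). rpoB, for the beta subunit, differed by -0.51 with an SE of 0.23 and rpoC2, for the beta″ subunit, by -0.50 with an SE of 0.23 (limma, adjusted p = 0.225 for each). rpoA, for the alpha subunit, differed by -0.18 with an SE of 0.13 (limma, adjusted p = 0.454). The median of the 4 was -0.50, against -0.29 for the 20 ribosomal probe sets, of which 5 passed. The difference between these medians was not tested. Without the 1 h arrays numbered 1 the medians were -0.24 and -0.17, and rpoB, rpoC1, rpoC2 and rpoA differed by -0.44, -0.27, -0.21 and 0.02. rps19, a small-subunit gene that did not pass, differed by -0.20 with an SE of 0.10 over all arrays (limma, adjusted p = 0.293), and its intensities ran from 703 to 1385.

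The 4 genes did not share an order of arrays. rpoA read 439.8, 456 and 437 in Col-0 at 0 h, 30 min and 3 h, with 426, 361 and 391 at 1 h after water and 471, 339 and 335 at 1 h after GA4. In etr1-1 it read 419.6, 374 and 329.5 at the single times, 267, 388 and 435 after water and 212, 354 and 490.1 after GA4. Its highest value of all and its lowest were thus both from etr1-1 at 1 h after GA4, and only 5 of 9 pairs were lower in etr1-1.

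rpoB read 87.2, 49.3 and 87.2 in Col-0 at 0 h, 30 min and 3 h, 39.5, 18.1 and 77.9 at 1 h after water and 42.9, 41.0 and 89.3 at 1 h after GA4. In etr1-1 it read 38.3, 141 and 37.2 at the single times, 21.8, 11.6 and 32.5 after water and 14.3, 36.1 and 34.5 after GA4. It was lower in etr1-1 in 8 of 9 pairs. The etr1-1 array at 30 min, the highest of all 18, was the one pair that went the other way.

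rpoC1 read 556, 752 and 775 in Col-0 at 0 h, 30 min and 3 h, 950.2, 668 and 849 at 1 h after water and 944, 477 and 883 at 1 h after GA4. In etr1-1 it read 596, 785 and 406 at the single times, 430.1, 638 and 616 after water and 315, 572 and 467 after GA4. The genotypes did not overlap at 1 h after water and did overlap after GA4.

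rpoC2 read 178, 310.4 and 374 in Col-0 at the single times, 249, 189 and 309 at 1 h after water and 293, 106 and 303 at 1 h after GA4. In etr1-1 it read 193, 300.1 and 144 at the single times, 90.7, 212 and 297 after water and 75.1, 143 and 179.9 after GA4. In 6 of 9 pairs the etr1-1 array was lower, and the Col-0 and etr1-1 values overlapped at 1 h after both sprays.

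accD had a large fitted difference and clpP a small one. accD read 687, 837 and 846 in Col-0 at 0 h, 30 min and 3 h, 557, 355 and 919 at 1 h after water and 657, 387 and 1059 at 1 h after GA4. In etr1-1 it read 619, 656 and 581 at the single times, 311, 347 and 486 after water and 214, 336 and 661 after GA4. The etr1-1 array was the lower of all 9 pairs, and the fitted difference of -0.57 with an SE of 0.21 did not pass (limma, adjusted p = 0.126).

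clpP read 1384, 1633 and 1413 in Col-0 at the single times, 1777, 1779 and 1659 at 1 h after water and 1913, 1444 and 1619 at 1 h after GA4. In etr1-1 it read 1583, 1319.8 and 1498 at the single times, 1581, 1977 and 1238 after water and 1415, 1785 and 1554 after GA4. The genotypes overlapped at 1 h after both sprays, and the fitted difference was -0.07 with an SE of 0.08 and a 95% interval from -0.25 to 0.10 (limma, adjusted p = 0.689). The bright rpl2 differed by -0.0044, with an interval from -0.15 to 0.14.

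**Figure D3:**
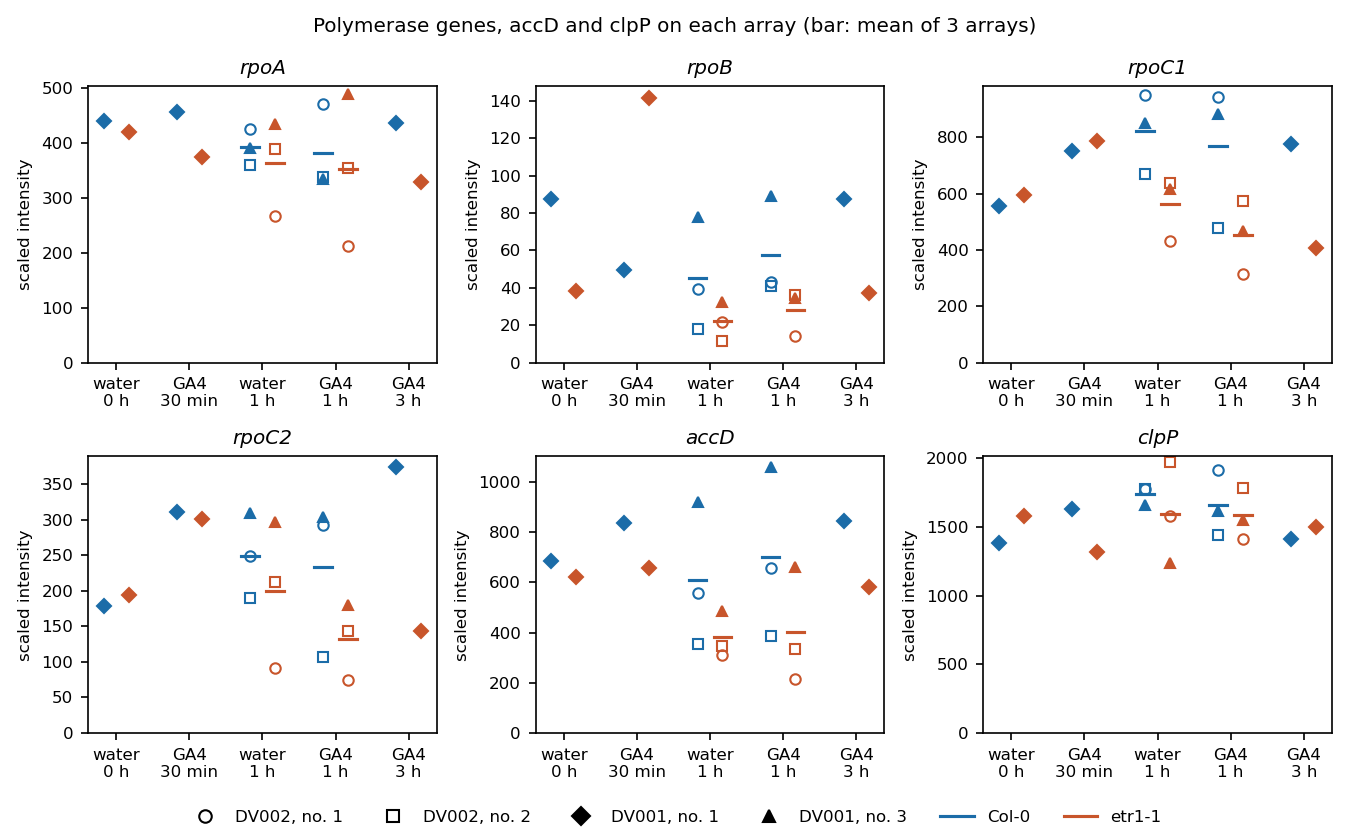
Scaled intensity (linear axis from 0) of the 4 polymerase genes, accD and clpP on each array, by spray and time, with Col-0 in blue and etr1-1 in orange, open symbols for DV002, filled symbols for DV001 and a bar at the mean of groups of 3 arrays. accD ranges from 214 to 1059 and is lower in etr1-1 within every matched pair, while the clpP values of the genotypes overlap.

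More members passed when array pairs were matched. Over all probe sets tested, arrays of one replicate number deviated together at 1 h. For the members alone this varied, with correlations of same-numbered arrays from -0.27 to 0.79 across genotypes. With the matched pair as a replicate block, 12 probe sets passed as lower, against a background of 6.91%. These were the 6 named above with rpoC1, accD, rps15, rpl14, rpl23 and rpl33. In that fit accD gave an adjusted p of 0.00361 and rpoC1 of 0.0359 (limma, replicate block). With the title prefix as a block 10 passed, against a background of 5.52%. Within the 10 DV001 arrays alone, 28 of 29 differences were negative, with a median of -0.28. There 7 passed, against a background of 4.08%: accD (-0.52 ± 0.09 SE, limma, adjusted p = 0.00465), rps2, rps4, rpl20, rpl22, rpl23 and the 244940_at probe set of rps12.

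The genotype difference varied in size from pair to pair. At 0 h, 12 of 29 probe sets were lower in etr1-1 and the median pair difference was 0.06. At 30 min after GA4 it was 22 of 29 (median -0.17), and at 3 h after GA4 28 of 29 (median -0.53). At 1 h, all 29 were lower in replicate number 1 after both water (median -0.76) and GA4 (median -0.96). In replicate number 2 the counts after water and GA4 were 15 and 13 of 29 (medians -0.02 and 0.05), and in replicate number 3 they were 22 and 26 (medians -0.21 and -0.35). Each of these is a difference between single arrays. The 3 probe sets of accD, rps2 and rpl22 were lower in etr1-1 in all 9 pairs, against 3.82% of all probe sets tested, and 5 more (rpoB, rpl20, rpl33 and both of rps12) in 8 of 9, where 9.36% of all probe sets were lower in 8 or 9 pairs.

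A fit with a genotype difference for each replicate number at 1 h, chosen after seeing the data, used the water and GA4 arrays of a number as its repeats. In replicate number 1, 21 of 29 probe sets fell in etr1-1, against a background of 2.49% lower. The largest were rpoC2 (-1.54 ± 0.19 SE, adjusted p = 8.94e-04), rps15 (-1.46 ± 0.34, adjusted p = 0.0324), rpl20 (-1.40 ± 0.18, adjusted p = 0.00109), rpoC1 (-1.33 ± 0.13, adjusted p = 1.57e-04) and accD (-1.18 ± 0.17, adjusted p = 0.00182, all limma). By class, 3 of 4 polymerase genes, 15 of 20 ribosomal probe sets, accD, matK and ycf1 passed. The 8 that did not pass were rpoB, clpP, ycf2, rps14, rpl2, rpl14, rpl16 and rpl36. In the same arrays 36 of 48 photosynthesis genes, 1 of 8 mitochondrial-genome genes, 1 of 3 plastid splicing and processing genes, 0 of 6 nuclear Clp genes and 0 of 9 nuclear genes of plastid ribosomal proteins fell.

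In replicate number 2, 0 of 29 passed and 0 had an unadjusted p under 0.05, against a background of 1.31% called. The 3 smallest p-values were those of rpl2 (0.22 ± 0.11 SE, adjusted p = 0.441), rps14 (0.32 ± 0.17, adjusted p = 0.459) and matK (0.18 ± 0.10, adjusted p = 0.485, all limma). The median was 0.03. In replicate number 3, 5 fell, against 1.79% lower in the background. They were rpoB (-1.01 ± 0.24 SE, adjusted p = 0.0364), rps14 (-0.86 ± 0.17, adjusted p = 0.0135), accD (-0.78 ± 0.17, adjusted p = 0.0218), rpl20 (-0.72 ± 0.18, adjusted p = 0.0475) and rpoC1 (-0.68 ± 0.13, adjusted p = 0.0129, all limma). Leaving out any 1 of the 4 arrays of replicate number 3 gave 0 or 1 called member.

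**Figure D4:**
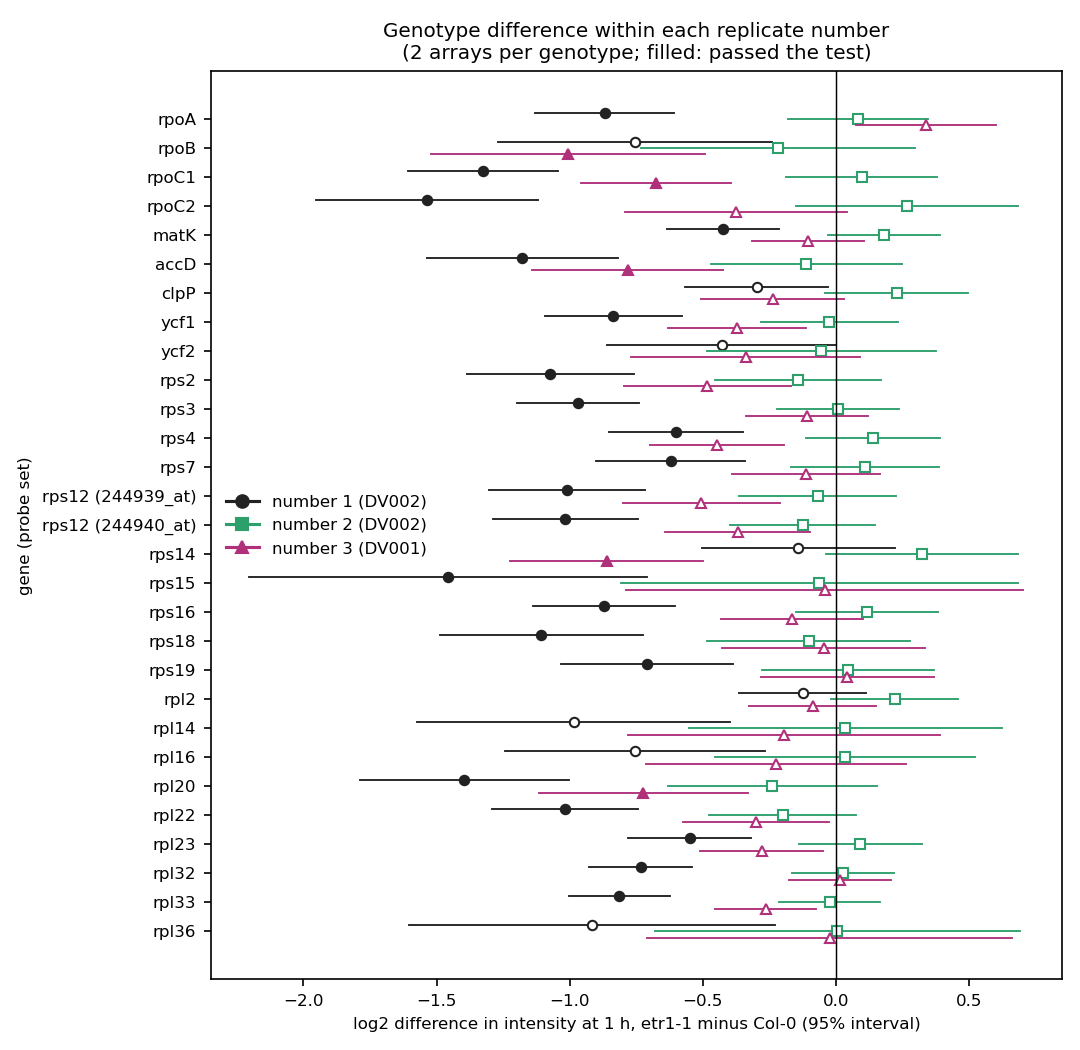
Points are the fitted log2 differences in intensity at 1 h, etr1-1 minus Col-0, within replicate number 1 (circles), 2 (squares) and 3 (triangles), bars are 95% confidence intervals and filled points passed the test. All 29 circles lie below 0 with a median of -0.87, the squares lie around 0 with a median of 0.03, and the triangles have a median of -0.26.

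The test of the differences between numbers gave fewer calls. Between replicate numbers 1 and 2 the genotype difference of rpoC1 changed by -1.42 ± 0.18 SE (limma, adjusted p = 0.0268), 1 of 29, against a background of 0.0188%. Between numbers 1 and 3 it changed for rpoA (-1.21 ± 0.17), rps3 (-0.86 ± 0.15) and rpl32 (-0.75 ± 0.13, limma, adjusted p = 0.0479 for each), 3 of 29 against a background of 0.176%. Between numbers 2 and 3, 0 of 29 passed, while 9 had an unadjusted p under 0.05 and the background was 0.0628%. These calls were lost without the filter on low values or without the variance trend.

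Without the 4 arrays of replicate number 1 at 1 h, the fit over all conditions called 1 member, rpl22 (-0.29 ± 0.07 SE, limma, adjusted p = 0.036), against a background of 2.37% lower. There 25 of 29 differences were negative and the median was -0.17. Without those of replicate number 2 it called 10, against 2.57%, and without those of replicate number 3 it called 4 (accD, rps2, rpl20 and rpl22), against 3.18%. The fitted difference of rps2 was -0.35, -0.62 and -0.52 in these 3 fits, and that of rpl20 was -0.43, -0.76 and -0.62.

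With 3 arrays per group, the genotypes at 1 h after water differed for 0 of 29 members in limma, against a background of 0.214% called, while 5 members had an unadjusted p under 0.05. All 29 differences were negative, with a median of -0.30. The smallest p-values were those of the rps12 probe sets (-0.49 and -0.51, adjusted p = 0.826 and 0.828) and rpl33 (-0.38, adjusted p = 0.858, limma). The values of the genotypes did not overlap, with etr1-1 lower, for 8 probe sets (rpoC1, ycf1, rps2, both of rps12, rpl20, rpl22 and rpl33), where 4.26% of all probe sets did so.

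At 1 h after GA4, 0 of 29 members passed in limma, against a background of 0.201%, and 11 had an unadjusted p under 0.05. The differences were negative for 28 of 29, with a median of -0.41. The smallest p-values belonged to rpl22 (-0.65 ± 0.18 SE, adjusted p = 0.259), rpl20 (-0.92 ± 0.28, adjusted p = 0.333) and rps2 (-0.68 ± 0.23, adjusted p = 0.412, limma). The genotypes did not overlap, with etr1-1 lower, for 6 probe sets (rpoB, 244939_at of rps12, rps18, rpl20, rpl22 and rpl33), where 6.01% of all probe sets did so. accD averaged 701 ± 338 (SD, n = 3) in Col-0 and 404 ± 231 in etr1-1 at this point, and the groups overlapped.

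No member passed the limma test for GA4 against water at 1 h. In Col-0, in etr1-1, over both genotypes and in the difference of their responses, 0 of 29 members passed and 0 had an unadjusted p under 0.05, against a background of 0% in each. In Col-0 the smallest p-values were those of ycf1 (-0.21 ± 0.18 SE), rpl2 (-0.15 ± 0.14) and rpoB (0.33 ± 0.35). In etr1-1 they were those of rpl22 (-0.36 ± 0.18), rps2 (-0.39 ± 0.23) and rps7 (-0.26 ± 0.18). Over both genotypes they were rpl22 (-0.22 ± 0.13), rps2 (-0.27 ± 0.16) and ycf1 (-0.21 ± 0.13), and for the difference of the responses rps15 (-0.63 ± 0.54), rpl22 (-0.29 ± 0.26) and rps18 (-0.34 ± 0.36). rpl22 in etr1-1 was the one member whose groups did not overlap, lower after GA4, where 2.95% of all probe sets did so. For rpoB in Col-0 the 95% interval ran from -0.43 to 1.09.

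The time steps rest on single DV001 arrays, with the genotypes as the only repeats. From water at 0 h to GA4 at 30 min, 0 of 29 members passed and 3 had an unadjusted p under 0.05, against a background of 3.93% called. Their smallest p-values were those of rps15 (0.75 ± 0.23 SE, adjusted p = 0.113), rpl23 (0.34 ± 0.11, adjusted p = 0.167) and rpoC2 (0.67 ± 0.26, adjusted p = 0.252, limma). The single-array steps were positive for 26 of 29 probe sets in Col-0, with a median of 0.28, and for 16 of 29 in etr1-1, with a median of 0.01. In etr1-1, rps14 stepped by 1.69, rpoB by 1.54 and ycf2 by 1.11, while in Col-0 they stepped by -0.57, -0.66 and -0.11.

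Between the water-sprayed arrays of 0 h and 1 h, 0 of 29 members passed, against a background of 1.65%, while 5 had an unadjusted p under 0.05. The smallest p-values were those of rpl23 (0.40 ± 0.11 SE, adjusted p = 0.12), rpl36 (1.19 ± 0.37, adjusted p = 0.16) and rps15 (0.66 ± 0.23, adjusted p = 0.213, limma). The Col-0 steps were positive for 24 of 29, with a median of 0.26, and share their 0 h array with the GA4 steps above. In etr1-1 the steps were positive for 16 of 29, with a median of 0.05. From GA4 at 1 h to GA4 at 3 h the background was 3.83%, and 0 of 29 members passed and 0 had an unadjusted p under 0.05. The smallest p-values there were those of matK (-0.19 ± 0.10, adjusted p = 0.382), accD (-0.25 ± 0.14, adjusted p = 0.415) and rps15 (-0.34 ± 0.23, adjusted p = 0.498, limma). These last steps were positive for 15 of 29 in Col-0 (median 0.01) and for 8 of 29 in etr1-1 (median -0.13). Time in DV001 and any drift between these arrays cannot be told apart.

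Members passed between the DV001 and DV002 arrays of 1 h, but not between replicate numbers 2 and 1 or between sprays. At 1 h, replicate number 3, the DV001 array, exceeded numbers 1 and 2, the DV002 arrays, for 10 of 29 members and fell below them for 0. The background was 23.8% called, 11.8% as higher and 11.9% as lower, so calls in either direction were common on the array. The 5 largest were accD (0.96 ± 0.16 SE, adjusted p = 9.92e-04), rps14 (0.95 ± 0.17, adjusted p = 0.00177), rpl36 (0.79 ± 0.22, adjusted p = 0.0208), rps16 (0.75 ± 0.14, adjusted p = 0.00223) and ycf2 (0.74 ± 0.12, adjusted p = 0.00109, all limma). rpl14, rpoB, rpoC2, rpl16 and matK also rose, by 0.29 to 0.74. Without the etr1-1 array of replicate number 3 after GA4, 6 were called, and with quantile normalization 9 were called higher and 2 lower. Replicate numbers 2 and 1 differed for 0 of 29, and 0 had an unadjusted p under 0.05, against a background of 3.28%. The smallest p-values of that comparison were those of 244939_at of rps12 (-0.22 ± 0.16), ycf2 (0.19 ± 0.14) and rpl20 (0.23 ± 0.20).

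In Col-0 at 1 h, the accD and rps14 values of the prefixes did not overlap, with DV001 higher. The same held for rpoB, rpoC2, matK, ycf2, rps16, rpl14, rpl16 and rpl36, and for rps18 with DV001 lower. The share of all probe sets without such overlap was not counted, so no excess among the members can be read from this list. The members with DV001 higher are those called above from the same 1 h arrays, so the list adds no separate support. rps14, a small-subunit protein gene, read 48.5 and 36.8 on the DV002 arrays after water and 158 on the DV001 array, and 57.8 and 59.0 against 165 after GA4. accD read 557 and 355 against 919 after water and 657 and 387 against 1059 after GA4. The other Col-0 arrays of DV001 read 187, 121 and 158 for rps14 and 687, 837 and 846 for accD. In etr1-1, rps14 read 43.1 and 43.6 against 78.7 after water, and 50.1 and 87.9 against 84.5 after GA4, where the values overlapped.

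Relative to the ribosomal genes, the polymerase genes and accD were mostly higher on DV001 than on DV002 arrays, and clpP mostly lower. Of the 4 polymerase genes 2 passed, with a class median of 0.48, and of the 20 ribosomal probe sets 5 passed, with a median of 0.07. On each array, the mean centred log2 level of the polymerase genes minus that of the ribosomal probe sets was above 0 on 8 of 10 DV001 arrays (-0.08 to 0.43) and below 0 on 7 of 8 DV002 arrays (-0.42 to 0.03). For accD it was above 0 on 9 of 10 DV001 arrays (-0.22 to 0.76) and below 0 on all 8 DV002 arrays (-0.70 to -0.11). For clpP it was below 0 on 7 of 10 DV001 arrays (-0.42 to 0.20) and above 0 on 6 of 8 DV002 arrays (-0.12 to 0.48). The clpP level relative to the ribosomal genes also differed by genotype, above 0 on 2 of 9 Col-0 arrays and 7 of 9 etr1-1 arrays. For accD the median relative level was lower in etr1-1 within each prefix. It was 0.39 in Col-0 and 0.21 in etr1-1 on DV001 arrays, and -0.21 and -0.53 on DV002 arrays. The polymerase medians had the same order, 0.18 and 0.03 on DV001 arrays and -0.08 and -0.23 on DV002 arrays. These relative levels were not tested.

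**Figure D5:**
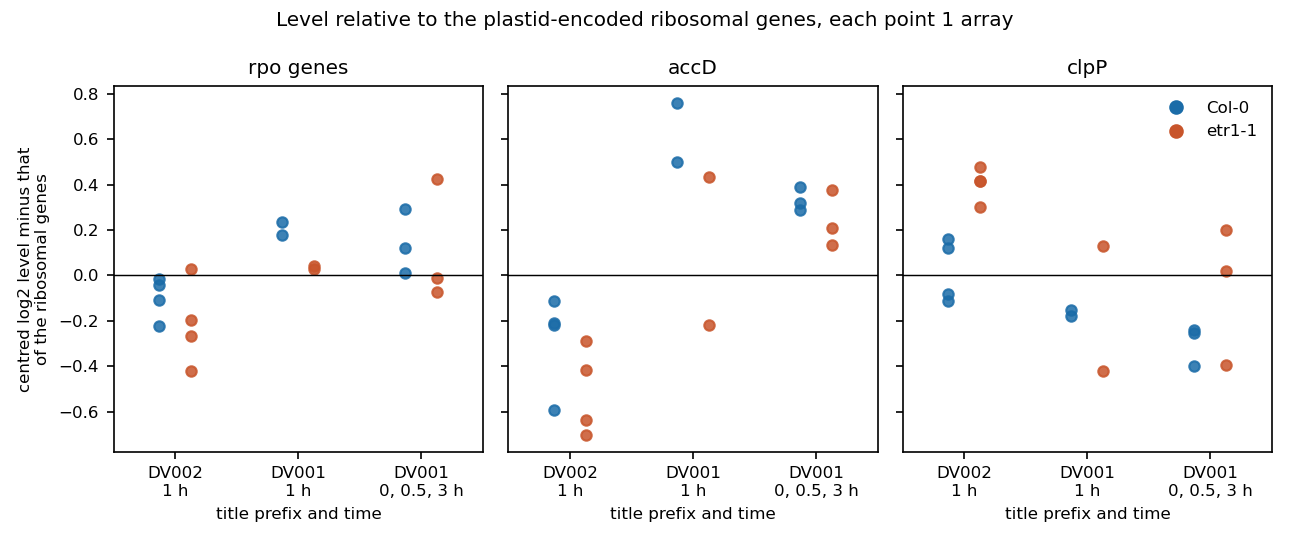
Each point is 1 array and gives the mean centred log2 level of the 4 polymerase genes, accD or clpP minus that of the 20 ribosomal probe sets, by title prefix and time, with Col-0 in blue and etr1-1 in orange. All 8 DV002 arrays lie below 0 for accD and 9 of the 10 DV001 arrays above it, whereas clpP lies below 0 on 7 of the 10 DV001 arrays and above it on 6 of the 8 DV002 arrays.

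In the comparison over all conditions, 11 of 48 plastid-encoded photosynthesis genes fell in etr1-1 and 0 rose, with a median of -0.37. The largest were psaA, a photosystem I reaction centre protein (-0.99 ± 0.28 SE, adjusted p = 0.0426), ndhH, of the NAD(P)H dehydrogenase complex (-0.76 ± 0.18, adjusted p = 0.0149), and psbT, of photosystem II (-0.68 ± 0.15, adjusted p = 0.00885, all limma). Without the 1 h arrays numbered 1, 5 of the 48 fell and the median was -0.21. Of the nuclear genes of plastid ribosomal proteins, 0 of the 9 measured passed, with a median of -0.03 and all 9 differences negative. Of 6 measured nuclear Clp genes and 3 plastid splicing and processing genes 0 passed, with medians of -0.07 and -0.20. Of 8 tested mitochondrial-genome genes 0 passed, with a median of -0.11. LHCB4.1 differed by 0.11 and the root markers by 0.02 in the median, and neither passed. The sigma factors, the polymerase-associated proteins and the nuclear acetyl-CoA carboxylase genes on the lists were not matched to a probe set of 1 gene and were not analysed here, and the 1 phage-type polymerase gene measured lay under the filter.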

How the data were processed

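The authors deposited 1 intensity per probe set and array, linear and already scaled, with a 2% trimmed mean of 100.007 to 100.008 on every array; the sources used here do not give the software. Per the labels' protocols, biotin-labelled cRNA was made from total RNA with an oligo(dT)-T7 primer and hybridised to ATH1 arrays. Array medians spanned 45.3 to 49.7, and the number of arrays limits the precision. No scaling was added. Of 22810 probe sets, 64 controls were removed and the lowest 30% by mean log2(intensity + 16) filtered (below an intensity of about 20), which left 15922.

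limma 3.58.1 in R 4.3.3 (lmFit, eBayes with a variance trend) was fitted on all tested probe sets, with Benjamini-Hochberg adjustment at 0.05. An offset of 16 understates folds of dim genes such as rpoB and ycf2. SE denotes the standard error and fold changes are on the log2(intensity + 16) scale. The fits were checked on simulated data. Gene names came from the platform annotation, updated by locus through RefSeq. 5 probe sets that list a member symbol with another symbol were left out. No sequence or coordinate is printed, since no genome of the array's build was used here.

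The members and gene lists were chosen with earlier results of these data known. The text names every member; the polymerase genes, accD and clpP by sample; up to 5 called members per direction by size; and, where none was called, the 3 with the smallest unadjusted p. At 1 h, deviations of same-numbered arrays from their group means correlated at 0.13 to 0.70 over 18 pairs, and 12 of 12 arrays correlated best with their own number, so the numbers were taken to pair arrays and blocked values are given where they change a count. For the members alone these correlations spanned -0.27 to 0.79 across genotypes and -0.30 to 0.92 within a genotype. The title prefix is called a batch nowhere in the labels and was used as a block only as a prefix.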

Additional observations from a re-analysis of the deposited data

Results flagged for a closer look

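For 4 members, the genotype difference at 1 h differed between replicate numbers by the test of the difference itself. For rpoC1 the difference between etr1-1 and Col-0 was lower in replicate number 1 than in number 2 by a log2 change of -1.42. For rpoA it was lower in number 1 than in number 3 by -1.21, for rps3 by -0.86 and for rpl32 by -0.75. In replicate number 1 the fitted genotype difference was -1.33 for rpoC1, -0.87 for rpoA, -0.97 for rps3 and -0.73 for rpl32. The GA4 arrays of replicate number 1 are also those on which 11 (Col-0) and 17 (etr1-1) of the 29 probe sets had their highest and lowest values. All 4 calls came from fits added after seeing the data, and each was lost without the filter on low values and without the variance trend. What sets replicate number 1 apart was not tested.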

How the results depend on the processing

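Of 1043 values under alternatives, covering the members named by the rule for each comparison, 102 lost and 16 gained a call. The other 925 did not change status, and these include members uncalled in both fits. The share of the calls themselves that was lost was not counted. Of members called in either fit, 0 changed sign, but sign changes of uncalled members were not counted. rpoA over all conditions was such a member, at -0.18 on all arrays and 0.02 without the 1 h arrays numbered 1. Of 492 class medians, 1 moved by more than the SD of the class mean between replicates at 1 h. That SD was 0.41 for the polymerase and 0.26 for the ribosomal genes, near the size of their medians over all conditions, -0.50 and -0.29. The count of moved medians thus misses smaller moves. The count of 6 members lower in etr1-1 over all conditions became 10 at an adjusted p of 0.10, 12 with the replicate block of array pairs, 10 with the title prefix as a block, 1 without the 1 h arrays numbered 1 and 10 without those numbered 2. Leaving out single arrays gave 4 to 10, with 10 without the Col-0 array of replicate number 2 after GA4. The replicate block changed no other member count. The 10 members called between replicate number 3 and numbers 1 and 2 became 6 without the filter, and 6 to 12 without single arrays. With quantile normalization they were 11, of which 9 higher and 2 lower, and at an adjusted p of 0.10 they were 10 higher and 2 lower. Without the Col-0 array of replicate number 2 after GA4, 8 were higher and 2 lower. The same counts came without the etr1-1 array of replicate number 1 after water. The absence of lower calls thus depends on scaling, threshold and single arrays. Within replicate number 3, the 5 calls became 3 with an offset of 1, 0 without the filter, 3 without the variance trend and 8 at an adjusted p of 0.10, and 0 to 1 without single arrays. Within replicate number 1, single arrays left out gave 14 to 22. The 1 call between numbers 1 and 2 became 3 with quantile normalization, 0 without the filter, 0 without the trend and 7 at 0.10, and 0 to 6 without single arrays. The 3 calls between numbers 1 and 3 became 1 with an offset of 1 and 0 without the filter or the trend, and 0 to 1 without single arrays. Between numbers 2 and 3, single arrays left out gave 0 to 1. The causes were not tested. In fits within a replicate number, leaving out an array leaves 1 in that arm, which is assumed to vary like the others. The median intensities of rpoB and ycf2, 38.9 and 32.1, lie near the filter at about 20.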
